A study of Mus musculus with 10 samples.

Results

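Cholesterol synthesis, uptake and efflux was followed through 32 genes, found by symbol among the 21849 genes of a count table of mouse tumours. They are 18 enzymes of the synthesis pathway, the 2 regulators Insig1 and Insig2 listed with them, and 12 genes of regulation, uptake, transport, efflux and storage. The tumours were subcutaneous grafts of CT26, a colon carcinoma line from BALB/c mice, in hosts of that strain. Both groups started at 5 weeks of age, and tumours were taken on day 20 after the cells were injected. The arginine-deficient diet, free of arginine and equal in calories, was given for 1 week before the injection (5 tumours), and the normal diet likewise (5 tumours). The labels do not say whether each diet went on after the injection. Bulk tumour RNA mixes CT26 cells with host cells, so that fewer cells of a type and less RNA per cell cannot be told apart in any value below.

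Cells make cholesterol from acetyl-CoA by way of mevalonate, farnesyl diphosphate, squalene and lanosterol, and they also take it up as lipoprotein. When sterol in the endoplasmic reticulum runs low, SCAP carries the SREBP factors to the Golgi, where they are cut and released to switch on synthesis enzymes and lipoprotein uptake, and the INSIG proteins hold them back when sterol is plentiful. When cholesterol is in excess, its oxidised forms activate the LXR receptors, which switch on the export pumps ABCA1 and ABCG1 and the ligase MYLIP that limits lipoprotein uptake, while SOAT1 stores the surplus as esters.

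Library totals were 12013178 to 31530123 counts. Of 12929 genes with counts enough for a test, 31 belong to the set. The biological coefficient of variation was 26.5%. Levels are given as CPM, counts scaled to a common library total. Skeletal muscle markers summed to 6011 and 1594 CPM in arginine-deficient replicates 3 and 4, and to 584 CPM in normal-diet replicate 4. In the other 7 libraries they gave 5.14 to 72.1 CPM, with Acta1 at 0 throughout. Mitochondrial transcripts took 9.97% of counts in arginine-deficient replicate 3, and 1.67% to 4.44% elsewhere. Erythroid markers summed to 55.9 to 106 CPM on the deficient diet and 104 to 612 CPM on the normal diet. Macrophage markers spanned 1743 to 1955 CPM on the deficient and 1402 to 2024 CPM on the normal diet, and those of proliferation 1438 to 2088 CPM and 1655 to 2413 CPM. The carcinoma list summed to 91.2 to 234 CPM on the deficient and 198 to 289 CPM on the normal diet, and was mostly Krt20, whereas Epcam, Cdx1, Cdx2 and Vil1 had at most 9, 1, 8 and 17 counts in any library. Adipocyte, keratinocyte, T cell, neutrophil, endothelial and fibroblast markers overlapped between the diets as well.

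The comparison of the diets asks how these genes stood in tumours of mice given the arginine-deficient diet. Arginine itself was not measured, and arginine deficiency below names the diet. All 17 tested enzymes averaged lower on the deficient diet, with log2 fold changes of -0.70 to -0.0047 and a median of -0.35, where 49.7% of all tested genes lay lower, 50.3% higher, and the median of all was 0.00. No single enzyme passed. The 12 genes of regulation, uptake and efflux had no common direction, with 5 higher, 7 lower and a median of -0.11. Insig1 lay lower and Insig2 higher. Of the 31 tested genes 0 passed an adjusted p of 0.05 in either direction by edgeR's quasi-likelihood test, and over all genes 0.0541% passed as higher and 0% as lower. At an unadjusted p under 0.05 by edgeR, 6 of the 31 were lower, all of them enzymes (Nsdhl, Pmvk, Acat2, Fdft1, Tm7sf2 and Msmo1), where 3.19% of all genes were, and 1 was higher (Soat1), where 3.54% were. With GC and length slopes as covariates 11 were lower and 1 higher at that p, where 7.9% and 8.08% of all genes were, and by limma voom with sample weights 10 and 1, where 9.69% and 10.3% were. The diets did not overlap in 1 of the 31, Tm7sf2, which was lower; 0.812% of all genes were lower without overlap and 0.835% higher. The direction of the enzymes is a description, since genes of one pathway do not vary independently and the set was chosen with earlier results of these tumours known. Without the 3 muscle-rich libraries the enzyme median was -0.39, with all 17 lower, and with each library's GC and length slopes as covariates it was -0.38, again with all 17 lower. It stayed between -0.47 and -0.32 with any 1 library left out, though 13 of the 17 were lower without normal-diet replicate 2 and 15 without arginine-deficient replicate 1. The median of the 12 other genes was 0.0050 without arginine-deficient replicate 3. Of the marker lists, 7 of 7 tested skeletal muscle markers were higher (2 at an unadjusted p under 0.05 by edgeR). Proliferation markers were lower in 7 of 8 (2 of the 8 at that p, in either direction). Erythroid markers were lower in 4 of 4 tested (4 at that p). Adipocyte, endothelial and fibroblast markers were each lower in 5 of 6 tested, and neutrophil markers in 4 of 5. Macrophage markers were lower in 7 of 10 (1 of the 10 at that p, in either direction). Carcinoma markers were lower in 3 of 5 tested (1 of the 5 at that p, in either direction). T cell markers were higher in 5 of 7 tested and keratinocyte markers in 2 of 2. The enzyme median without the muscle-rich libraries is given above, and the part of the other markers in the enzyme values was not tested.

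**Figure D1:**
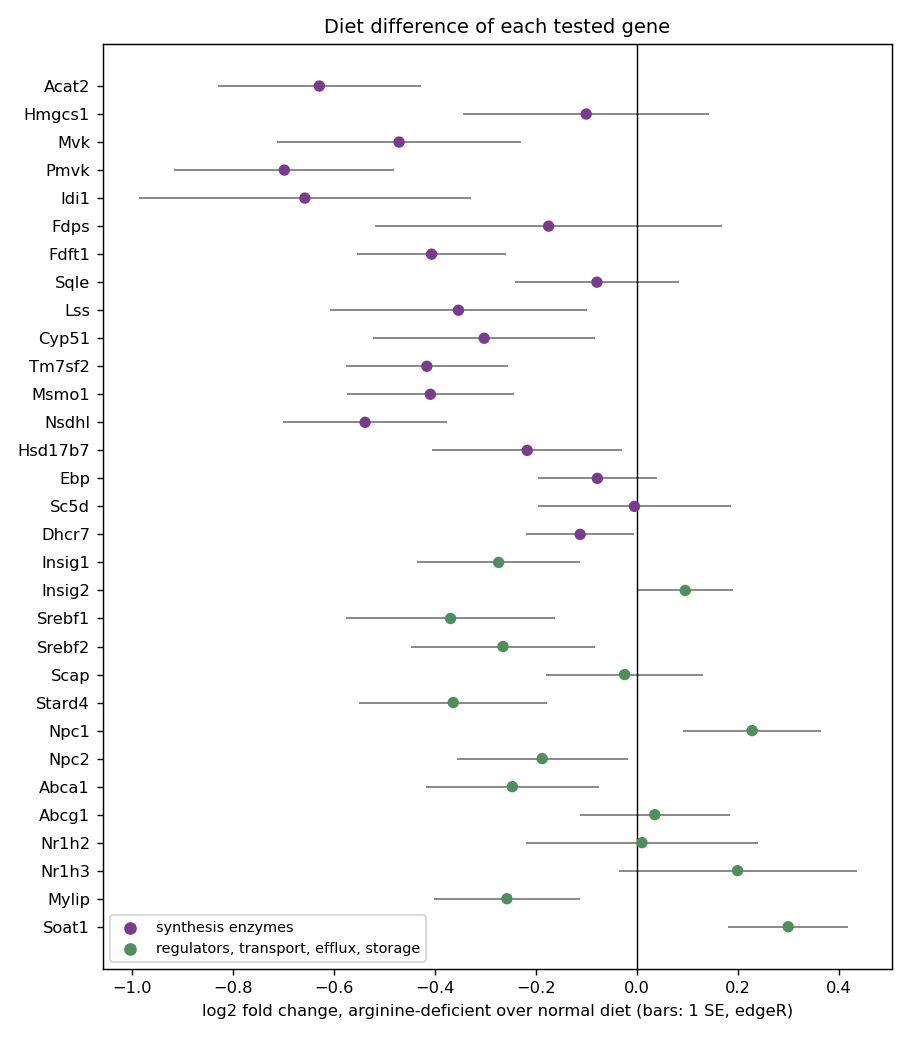
Log2 fold change of each of the 31 tested genes, arginine-deficient over normal diet (points), with 1 SE by edgeR (bars), in the order of the pathway from the top. All 17 enzymes lie at or left of 0, down to -0.70 for Pmvk, while the other 14 genes lie on both sides, up to 0.30 for Soat1.

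The enzymes' promoters are shown because these genes lay lower together and because their known regulators, SREBP with its partners NF-Y and SP1, bind short motifs close to the start. RefSeq windows (GRCm38.p6) were found for 26 of the 32 genes and not for Fdps, Fdft1, Sqle, Stard4, Npc1 and Abcg1. In the 250 bases before each start, both strands were searched for the sterol regulatory element TCACNCCAC, the CCAAT box CCAAT, the GC box GGGCGG and the E-box CACGTG. Of the 26 genes 6 had several windows, and any gene was counted if 1 or more of its windows held the motif. The first transcribed bases of 28 of these genes' 35 windows occurred in GENCODE transcripts of the same symbol. The CCAAT box was found in 14 of the 15 enzymes with a window, all but Acat2, and in 5 of the 9 genes of regulation, uptake and efflux, against 37.5% of 27025 genes and 40.7% of the 10136 of them tested in these tumours. In Dhcr7 it was found only before a later start, inside the gene body, and not before the earlier ones. The GC box was found in 14 of the 15 enzymes, all but Pmvk, and in 6 of the 9, against 35.4% of all genes and 61.8% of those tested. The E-box was in 3 of the 15 enzymes and in 2 of the 9, against 6.86% of all genes and 9.51% of those tested. The sterol element in this strict spelling was found in Hmgcs1 alone, at -137 to -129 from the start, and in 1.23% of all genes; other spellings were not searched. The CCAAT box and the sterol element share no base at that place. Below are the last 180 bases before the start of the 6 enzymes of smallest p that hold a CCAAT box, in the direction of transcription, and then of Hmgcs1, added after the motif counts were seen. Starts are those of RefSeq, and for Idi1, Tm7sf2 and Msmo1 they lie inside the gene body used for counting. Capitals mark the CCAAT box on either strand (CCAAT or ATTGG) and, in Hmgcs1 only, the sterol element.
Nsdhl, chrX:72918341-72918520 (plus strand): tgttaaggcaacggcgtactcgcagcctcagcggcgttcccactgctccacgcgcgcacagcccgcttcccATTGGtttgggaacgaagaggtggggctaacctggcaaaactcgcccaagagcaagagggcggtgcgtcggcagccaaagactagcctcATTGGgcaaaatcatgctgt
Pmvk, chr3:89454361-89454540 (plus strand): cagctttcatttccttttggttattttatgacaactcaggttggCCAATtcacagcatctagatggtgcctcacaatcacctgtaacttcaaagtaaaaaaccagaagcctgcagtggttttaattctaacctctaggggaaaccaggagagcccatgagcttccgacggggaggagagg
Tm7sf2, chr19:6067851-6068030 (minus strand): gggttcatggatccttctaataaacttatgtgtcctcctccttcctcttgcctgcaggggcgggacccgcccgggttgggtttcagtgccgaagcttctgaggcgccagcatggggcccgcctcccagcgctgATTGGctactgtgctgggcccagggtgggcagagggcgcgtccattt
Msmo1, chr8:64733579-64733758 (minus strand): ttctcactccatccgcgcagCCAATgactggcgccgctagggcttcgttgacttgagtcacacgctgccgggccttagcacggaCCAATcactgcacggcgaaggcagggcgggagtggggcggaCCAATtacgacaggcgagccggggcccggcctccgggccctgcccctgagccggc
Idi1, chr13:8885426-8885605 (plus strand): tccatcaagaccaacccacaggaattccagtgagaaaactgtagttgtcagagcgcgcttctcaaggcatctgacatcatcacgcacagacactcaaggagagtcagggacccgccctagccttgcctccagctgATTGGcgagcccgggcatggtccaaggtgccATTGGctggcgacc
Mvk, chr5:114444089-114444268 (plus strand): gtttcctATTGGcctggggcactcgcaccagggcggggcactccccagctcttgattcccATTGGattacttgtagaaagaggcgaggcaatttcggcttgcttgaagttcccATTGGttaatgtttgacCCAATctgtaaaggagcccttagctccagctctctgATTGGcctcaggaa
Hmgcs1, chr13:119690171-119690350 (plus strand): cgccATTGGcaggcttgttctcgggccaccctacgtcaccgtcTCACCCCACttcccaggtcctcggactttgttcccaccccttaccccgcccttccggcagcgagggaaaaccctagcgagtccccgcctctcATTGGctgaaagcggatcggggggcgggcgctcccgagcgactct
In this stretch Mvk holds 5 CCAAT boxes, Msmo1 3, Nsdhl, Idi1 and Hmgcs1 2 each, and Pmvk and Tm7sf2 1 each. A match is a run of letters and not a bound site, and these tumours give no measurement of binding.

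The first enzymes lead from acetyl-CoA to farnesyl diphosphate, and the 6 tested among 7 had a median log2 fold change of -0.55. Acat2, the thiolase that joins acetyl-CoA units to acetoacetyl-CoA, had 30.1, 25.8, 45, 36.8 and 40.2 CPM in arginine-deficient replicates 1 to 5, against 43.3, 62.5, 60.1, 37.7 and 71.5 CPM in normal-diet replicates 1 to 5. Only 3 deficient tumours lay under the whole normal range, the lowest normal value being that of normal-diet replicate 4. The mean was 35.6 ± 7.70 CPM under arginine deficiency and 55.0 ± 14.1 CPM under the normal diet (SD, n = 5 each). Its edgeR log2 fold change was -0.63 with an SE of 0.20 (adjusted p = 0.466). Hmgcs1, which adds the next acetyl unit to give HMG-CoA, had 36.3, 51.8, 107, 62.7 and 74.5 CPM in arginine-deficient replicates 1 to 5, against 66.8, 90.7, 74.3, 67.9 and 56.4 CPM in normal-diet replicates 1 to 5. Its deficient tumours held both the lowest and the highest of the 10 values, the highest in arginine-deficient replicate 3, rich in muscle and mitochondrial transcripts. Its fold change had an approximate 95% interval from -0.58 to 0.38 on the log2 scale (edgeR log2 fold change -0.10 with an SE of 0.24, adjusted p = 0.998). Of its exonic bases 46.6% lie inside another gene's body and 12.1% inside another gene's exons, and whether this cost it counts was not tested.

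Mevalonate kinase, Mvk, spanned 17.2 to 32.6 CPM on the deficient diet and 21.8 to 53.5 CPM on the normal diet (edgeR log2 fold change -0.47 with an SE of 0.24, adjusted p = 0.794). Pmvk, which adds the next phosphate, had 12.8, 13.5, 10.5, 15.6 and 15.8 CPM in arginine-deficient replicates 1 to 5, against 19.8, 19.7, 22.2, 14.4 and 34.7 CPM in normal-diet replicates 1 to 5. Among the 31 genes it had the largest fold change toward lower values, yet its normal range was wide, with normal-diet replicate 5 far up and replicate 4 among the deficient tumours (edgeR log2 fold change -0.70 with an SE of 0.22, adjusted p = 0.465). Mvd, the decarboxylase that follows, was listed at 0 in every library. Of its exonic bases 100% lie inside another gene's body but 0% inside another gene's exons, and the cause of the 0 was not tested. Idi1, which turns isopentenyl diphosphate into the isomer that starts chain building, had 10.4, 15, 40.2, 23.0 and 25.5 CPM in arginine-deficient replicates 1 to 5, against 27.3, 55.5, 38.8, 32.4 and 25.7 CPM in normal-diet replicates 1 to 5. Arginine-deficient replicates 1 and 2 were lowest and replicate 3 overlapped the upper normal values. The spread within a diet was the widest of the 17 enzymes (edgeR log2 fold change -0.66 with an SE of 0.33, unadjusted p = 0.0689, adjusted p = 0.782). Its interval, from -1.30 to -0.012 on the log2 scale, left out 0 only because the normal approximation makes it narrower than the F test would. Without the 3 muscle-rich libraries the fold change of Idi1 was -1.12 on the log2 scale (adjusted p = 0.398 by edgeR). Fdps, farnesyl diphosphate synthase, had only 19 to 62 counts per library, so its log2 fold change of -0.17 (SE 0.34) carries little. Of its exonic bases 79.6% lie inside other gene bodies and 26.7% inside other genes' exons.

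**Figure D2:**
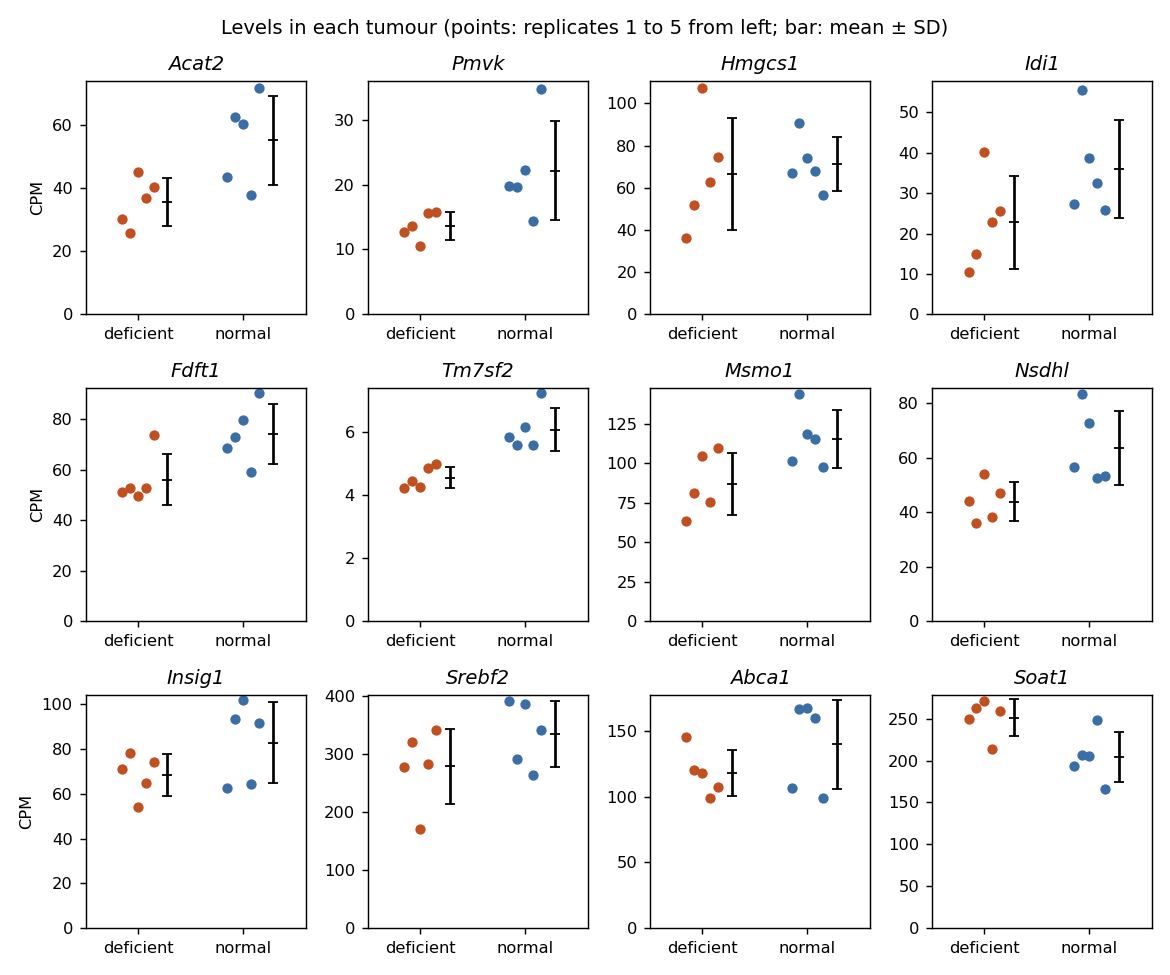
CPM of 12 of the genes in each tumour, deficient diet at left and normal diet at right of each panel (points, replicates 1 to 5 from left; bars, mean ± SD, n = 5), each axis starting at 0. Tm7sf2 is the one panel in which the diets are apart (4.22 to 4.97 CPM against 5.57 to 7.23 CPM), and Soat1 the one in which 4 of 5 deficient tumours exceed every normal one.

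From squalene on, the 11 enzymes had a median log2 fold change of -0.30. Squalene synthase, Fdft1, which draws farnesyl diphosphate into sterols, had 51.0, 52.7, 49.7, 52.5 and 73.8 CPM in arginine-deficient replicates 1 to 5, against 68.4, 73.1, 79.8, 59.1 and 90.2 CPM in normal-diet replicates 1 to 5. Arginine-deficient replicates 1 to 4 sat close together and under every normal tumour, while arginine-deficient replicate 5 sat inside the normal range (edgeR log2 fold change -0.41 with an SE of 0.15, adjusted p = 0.589). Sqle, the squalene epoxidase and a rate-limiting step, had 92.9, 99.6, 104, 141 and 144 CPM in arginine-deficient replicates 1 to 5, against 119.8, 155, 129, 116 and 94.8 CPM in normal-diet replicates 1 to 5. Its diets overlapped almost fully, with an interval from -0.40 to 0.24 on the log2 scale (edgeR log2 fold change -0.08 with an SE of 0.16, adjusted p = 0.998). Lss, which closes the ring to lanosterol, and Cyp51, which takes off the first methyl group, differed by -0.35 (SE 0.26) and -0.30 (SE 0.22) on the log2 scale, with edgeR adjusted p of 0.937 and 0.939. Of the exonic bases of Lss 68.5% lie inside other gene bodies and 3.53% inside other genes' exons.

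The steps that follow Cyp51 held 3 of the 6 enzymes that reached an unadjusted p under 0.05. Tm7sf2, a reductase of the sterol ring, had 4.22, 4.43, 4.26, 4.84 and 4.97 CPM in arginine-deficient replicates 1 to 5, against 5.83, 5.57, 6.13, 5.57 and 7.23 CPM in normal-diet replicates 1 to 5. Every deficient tumour lay under every normal tumour, though on only 69 to 144 counts per library. The means were 4.54 ± 0.343 CPM under arginine deficiency and 6.07 ± 0.693 CPM under the normal diet (SD, n = 5 each). The log2 fold change by edgeR was -0.42 with an SE of 0.16 (adjusted p = 0.625). Msmo1, the oxygenase that attacks the remaining methyl groups, had 63.4, 81.1, 105, 75.4 and 109.9 CPM in arginine-deficient replicates 1 to 5, against 101, 144, 118, 115 and 97.8 CPM in normal-diet replicates 1 to 5. Arginine-deficient replicates 3 and 5 reached into the normal range (edgeR log2 fold change -0.41 with an SE of 0.16, adjusted p = 0.657). Nsdhl, the dehydrogenase of the same step, had 44.2, 35.9, 54.0, 38.2 and 46.9 CPM in arginine-deficient replicates 1 to 5, against 56.6, 83.3, 72.6, 52.6 and 53.2 CPM in normal-diet replicates 1 to 5. Here 4 of 5 deficient tumours lay under the normal range and muscle-rich arginine-deficient replicate 3 just inside it, at a mean of 43.8 ± 7.20 CPM under arginine deficiency and 63.6 ± 13.7 CPM under the normal diet (SD, n = 5 each; edgeR log2 fold change -0.54 with an SE of 0.16, adjusted p = 0.457, unadjusted p = 0.00619). Nsdhl was the 1 gene of the 31 to pass under any alternative, by limma voom with sample weights (log2 fold change -0.67, adjusted p = 0.0207), where 1.3% of all genes passed as lower.

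The last enzymes differed little between the diets. Hsd17b7, the ketosterol reductase that completes demethylation, had a log2 fold change of -0.22 (SE 0.19), Ebp, the sterol isomerase, -0.08 (SE 0.12), Sc5d, the sterol desaturase, -0.0047 (SE 0.19) and Dhcr7, the final reductase, -0.11 (SE 0.11). Their adjusted p by edgeR was 0.959, 0.998, 0.999 and 0.970. Dhcr7 was the steadiest of them, at 42.2 to 52.0 CPM on the deficient diet and 44.2 to 55.0 CPM on the normal diet, with an interval from -0.32 to 0.10 on the log2 scale. Sc5d spanned 43.7 to 74.6 CPM and 37.2 to 68.3 CPM, with its top value again in arginine-deficient replicate 3.

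Seen by tumour, the enzymes were lowest in arginine-deficient replicates 1 and 2. The median enzyme stood at -0.58, -0.44, -0.22, -0.21 and -0.049 log2 units from the normal mean in arginine-deficient replicates 1 to 5, against -0.14, 0.22, 0.091, -0.15 and -0.16 in normal-diet replicates 1 to 5. The diets thus overlapped, and normal-diet replicates 2 and 3 alone stood above 0. Out of 17 enzymes, 16, 16, 13, 14 and 10 were under the normal mean in arginine-deficient replicates 1 to 5, and 15, 4, 2, 15 and 9 in normal-diet replicates 1 to 5. The lowest of the 10 tumours was arginine-deficient replicate 1 for 8 enzymes and replicate 3 for 4, and the highest was normal-diet replicate 2 for 7 and replicate 5 for another 7. These extremes went with different genes: Idi1, Fdps, Sqle, Cyp51, Msmo1, Nsdhl and Dhcr7 peaked in normal-diet replicate 2, whereas Acat2, Mvk, Pmvk, Fdft1, Lss, Tm7sf2 and Ebp peaked in replicate 5 of that diet. The slope of log2 CPM on transcript GC content, per 10 percentage points, was -0.52 in arginine-deficient replicate 3, and -0.33 and 0.37 in normal-diet replicates 2 and 5; the enzymes' transcripts ran from 41.1% GC for Idi1 to 58.5% for Mvk. How far GC content shaped a single library's profile was not tested, and the enzyme median with these slopes as covariates is given above.

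**Figure D3:**
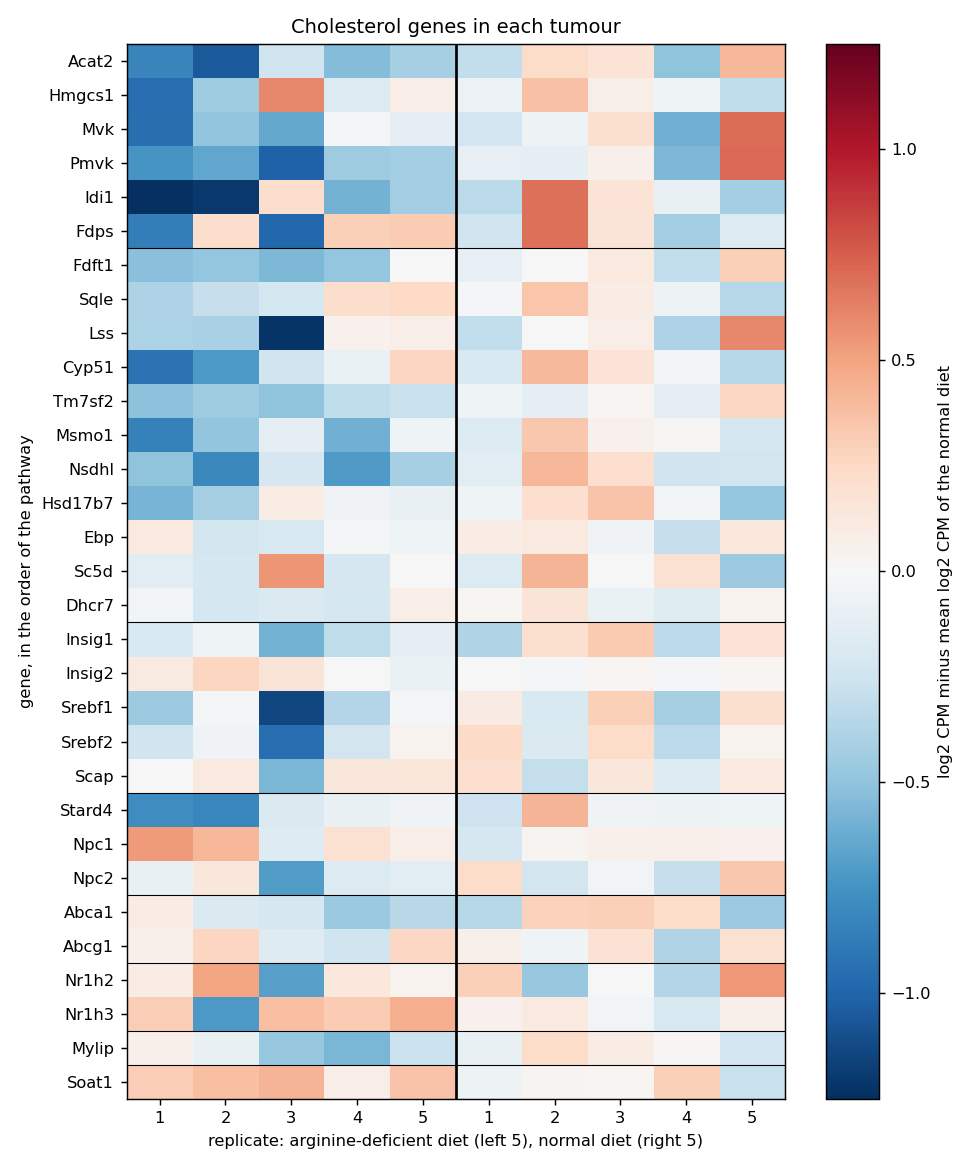
Each tested gene (rows, in pathway order) in each tumour (columns, arginine-deficient replicates at left, normal-diet replicates at right), as log2 CPM minus the mean of the normal diet; values beyond the colour bar take its end colour. The upper rows, the enzymes, are mostly blue in arginine-deficient replicates 1 and 2 (16 of 17 under the normal mean in each) and mostly red in normal-diet replicate 3 (2 of 17).

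The genes that control SREBP were not uniformly shifted, with 4 of 5 lower, a median of -0.27 on the log2 scale and no unadjusted p under 0.05. Srebf2, which encodes the SREBP form that drives cholesterol genes, had 277, 319.5, 171, 282 and 340.4 CPM in arginine-deficient replicates 1 to 5, against 390.4, 291, 386, 263 and 341 CPM in normal-diet replicates 1 to 5. Arginine-deficient replicate 3, with most muscle and mitochondrial transcripts and the lowest GC slope, was far below the rest. The part of these traits in its level was not tested. The other 4 deficient tumours lay among the normal ones (edgeR log2 fold change -0.27 with an SE of 0.18, adjusted p = 0.914). Srebf1, which encodes the form that favours fatty acid genes, had 135, 182, 84.1, 144 and 184 CPM in arginine-deficient replicates 1 to 5, against 199, 162, 228, 139 and 213 CPM in normal-diet replicates 1 to 5. It had the same low tumour (edgeR log2 fold change -0.37 with an SE of 0.21, adjusted p = 0.834). Insig1, a retainer of SCAP and itself an SREBP target, had 71.1, 78.3, 54.1, 65.1 and 74.4 CPM in arginine-deficient replicates 1 to 5, against 62.7, 93.6, 102, 64.5 and 91.6 CPM in normal-diet replicates 1 to 5. Normal-diet replicates 1 and 4 were as low as the deficient tumours, so the diets overlapped (edgeR log2 fold change -0.27 with an SE of 0.16, adjusted p = 0.861). Insig2, a retainer less tied to SREBP, averaged 82.5 ± 7.86 CPM under arginine deficiency and 77.2 ± 1.32 CPM under the normal diet (SD, n = 5 each; edgeR log2 fold change 0.10 with an SE of 0.10, adjusted p = 0.974). Scap, the escort, stood at 55.2 to 90.9 CPM on the deficient diet and 66.5 to 94.9 CPM on the normal diet (edgeR log2 fold change -0.02 with an SE of 0.16, adjusted p = 0.998).

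Transport and uptake genes went both ways. Npc1, the membrane protein that passes cholesterol out of the lysosome, had 59.3, 54.8, 36.8, 46.8 and 43.5 CPM in arginine-deficient replicates 1 to 5, against 35.5, 42.0, 43.0, 42.9 and 42.5 CPM in normal-diet replicates 1 to 5. In 4 of 5 deficient tumours it was above the whole normal range, and in muscle-rich arginine-deficient replicate 3 inside it (edgeR log2 fold change 0.23 with an SE of 0.14, adjusted p = 0.866). Npc2, its soluble partner, had 330.3, 389, 217, 312 and 323 CPM in arginine-deficient replicates 1 to 5, against 413, 299.8, 344, 288 and 444 CPM in normal-diet replicates 1 to 5, and the diets overlapped with arginine-deficient replicate 3 lowest (edgeR log2 fold change -0.19 with an SE of 0.17, adjusted p = 0.967). Stard4, a carrier that moves sterol between membranes and an SREBP2 target, averaged 48.4 ± 12.1 CPM under arginine deficiency and 62.3 ± 11.8 CPM under the normal diet (SD, n = 5 each; edgeR log2 fold change -0.36 with an SE of 0.19, adjusted p = 0.794). Mylip, a ubiquitin ligase that limits lipoprotein uptake, had 38.1, 34.3, 26.4, 24.7 and 30.4 CPM in arginine-deficient replicates 1 to 5, against 34.2, 42.9, 38.9, 36.8 and 31.0 CPM in normal-diet replicates 1 to 5. In this gene 3 deficient tumours were under the normal range and 2 inside it (edgeR log2 fold change -0.26 with an SE of 0.14, adjusted p = 0.834).

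Efflux genes and the LXR receptors did not pass, and the diets overlapped in each of the 4. Abca1, the pump that loads cholesterol on apolipoprotein, had 146, 120.2, 118, 98.8 and 107 CPM in arginine-deficient replicates 1 to 5, against 107, 166, 167, 159.8 and 99.3 CPM in normal-diet replicates 1 to 5. The normal tumours split into 3 high and 2 low values, and the deficient ones spread over 98.8 to 146 CPM (edgeR log2 fold change -0.25 with an SE of 0.17, adjusted p = 0.919, interval -0.58 to 0.09). Abcg1, the pump that loads mature lipoprotein, had 30.5, 35.2, 26.2, 24.5 and 34.9 CPM in arginine-deficient replicates 1 to 5, against 30.4, 28.2, 33.0, 22.5 and 33.3 CPM in normal-diet replicates 1 to 5, which overlapped throughout (log2 fold change 0.04, SE 0.15, interval -0.25 to 0.33). Nr1h3, the LXR alpha receptor, had 3.78, 1.86, 3.97, 3.80 and 4.18 CPM in arginine-deficient replicates 1 to 5, against 3.18, 3.32, 2.98, 2.66 and 3.20 CPM in normal-diet replicates 1 to 5. It was above every normal tumour in 4 of 5 deficient ones and lowest of all in arginine-deficient replicate 2, on 31 to 119 counts per library (edgeR log2 fold change 0.20 with an SE of 0.24, adjusted p = 0.982). Nr1h2, the LXR beta receptor, averaged 146 ± 39.0 CPM under arginine deficiency and 145 ± 43.2 CPM under the normal diet (SD, n = 5 each), with an interval from -0.44 to 0.46 on the log2 scale.

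Soat1, which esterifies cholesterol for storage in droplets, was the one gene of the 31 that reached an unadjusted p under 0.05 toward higher values. It had 250, 262, 271, 214 and 259 CPM in arginine-deficient replicates 1 to 5, against 193, 207, 206, 248 and 166 CPM in normal-diet replicates 1 to 5. In 4 of 5 deficient tumours it exceeded every normal tumour, with normal-diet replicate 4 and arginine-deficient replicate 4 crossing over (mean 251 ± 22.2 CPM under arginine deficiency and 204 ± 29.6 CPM under the normal diet, SD, n = 5 each; edgeR log2 fold change 0.30 with an SE of 0.12, adjusted p = 0.651, unadjusted p = 0.0271). Macrophages, which use SOAT1 in foam cell formation, gave marker sums that overlapped between the diets, as above; the part of cell makeup in the Soat1 values was not tested.

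**Figure D4:**
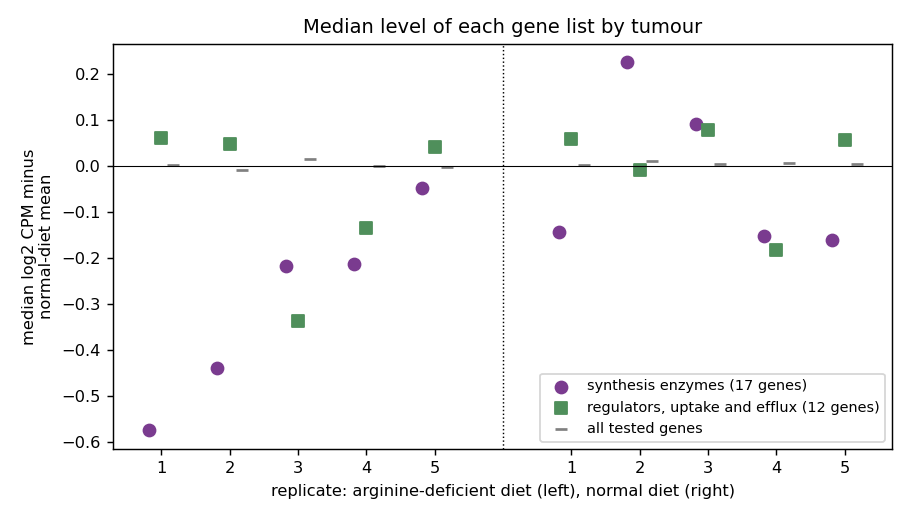
Median over the genes of a list of log2 CPM minus the normal-diet mean, by tumour (arginine-deficient replicates at left, normal-diet at right), for the 17 enzymes, the 12 genes of regulation, uptake and efflux, and all tested genes. The enzymes run from -0.58 to -0.049 on the deficient diet and from -0.16 to 0.22 on the normal diet, while the 12 other genes are lowest in arginine-deficient replicate 3, at -0.34.

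Per kilobase of exon, averaged over the diets, the most abundant of the genes was Npc2 at 61.8 CPM per kb, then Nr1h2 at 43.3 and Srebf2 at 42.6 CPM per kb. Among the tested enzymes, which leave out Mvd with 0 counts, Cyp51 was highest, at 29.4 CPM per kb. Tm7sf2 and Fdps were lowest, at 1.2 and 0.422 CPM per kb, and the part of gene overlap in the Fdps value was not tested. On the mm10 build, the genes that reached an unadjusted p under 0.05, with Idi1 and Hmgcs1, lie as follows. Of the early enzymes there are Acat2 (ENSMUSG00000023832.14) at chr17:12942890-12960747, Hmgcs1 (ENSMUSG00000093930.2) at chr13:119690379-119708260, Pmvk (ENSMUSG00000027952.16) at chr3:89454541-89469013 and Idi1 (ENSMUSG00000058258.14) at chr13:8885501-8892451. Of the later ones there are Fdft1 (ENSMUSG00000021273.11) at chr14:63145150-63179578, Tm7sf2 (ENSMUSG00000024799.16) at chr19:6062821-6068373, Msmo1 (ENSMUSG00000031604.10) at chr8:64718139-64733792 and Nsdhl (ENSMUSG00000031349.4) at chrX:72918557-72958514. The storage gene is Soat1 (ENSMUSG00000026600.12) at chr1:156424525-156474331. These are whole gene bodies, exons and introns, of protein-coding genes.

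Across the 10 tumours 6 pairs of genes were compared in log2 CPM. Hmgcs1 and Idi1 went up and down together, with Pearson r = 0.909 (permutation p = 0.00053, Benjamini-Hochberg adjusted p = 0.00318 over the 6 pairs) and Spearman rho = 0.842 (permutation p = 0.00346, adjusted p = 0.0208). Without arginine-deficient replicates 1 and 3, the 2 tumours farthest from the median of Hmgcs1, r was 0.892 (exact permutation, adjusted p = 0.0326) and rho was 0.714 (adjusted p = 0.346). With 1 tumour left out r passed in all 10 cases, whereas rho missed the threshold in 5 of 10, namely on leaving out any of arginine-deficient replicates 1 to 4, or normal-diet replicate 2 (rho 0.783 to 0.967, exact permutation, adjusted p = 0.000992 to 0.103). With 5 tumours a diet no r within a diet was computed, and with the diet means subtracted r was 0.976. With each library's GC and length slopes regressed out it was 0.891, the transcripts having 43.6% GC for Hmgcs1 and 41.1% for Idi1.

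Another 4 pairs did not pass with levels as measured. Hmgcs1 and Srebf2 had r = -0.345 and rho = -0.139 (permutation p = 0.313 and 0.706, adjusted p = 0.626 and 0.946). Hmgcs1 and Insig1 had r = -0.111 and rho = -0.0788 (permutation p = 0.767 and 0.838, adjusted p = 0.767 and 0.946). Abca1 had r = -0.192 and rho = -0.0303 with Abcg1 (permutation p = 0.588 and 0.946, adjusted p = 0.705 and 0.946) and r = -0.224 and rho = -0.394 with Nr1h3 (permutation p = 0.566 and 0.263, adjusted p = 0.705 and 0.527). Without the 2 farthest tumours r was -0.0502 for Hmgcs1 with Srebf2, 0.258 for Hmgcs1 with Insig1, -0.384 for Abca1 with Abcg1 and -0.262 for Abca1 with Nr1h3. With each library's GC and length slopes regressed out, an alternative added after seeing the data, Abca1 with Nr1h3 had rho = -0.867, which passed (permutation, adjusted p = 0.0145), and r = -0.687, which did not (permutation, adjusted p = 0.0595).

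**Figure D5:**
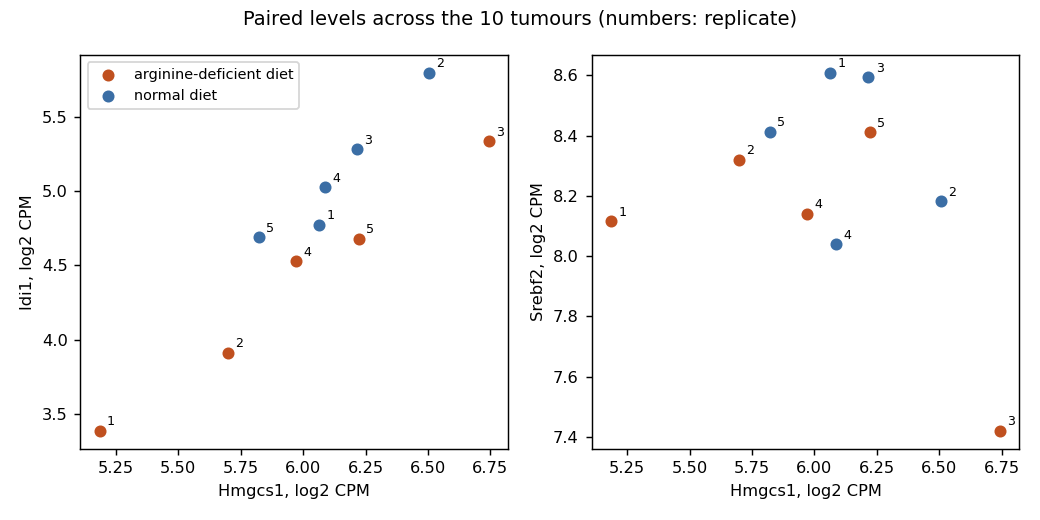
Log2 CPM of Idi1 against Hmgcs1 (left) and of Srebf2 against Hmgcs1 (right), 1 point per tumour, numbered by replicate within each diet. Deficient tumours lie lower in Idi1 than normal tumours of like Hmgcs1 level, and the right panel shows the scatter of Srebf2 over the same Hmgcs1 levels (r = -0.345), with arginine-deficient replicate 3 at lower right.

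After these values were seen, the ratio of Idi1 to Hmgcs1 was formed. On the log2 scale of counts it was -1.81, -1.79, -1.41, -1.45 and -1.55 in arginine-deficient replicates 1 to 5, against -1.29, -0.71, -0.94, -1.07 and -1.13 in normal-diet replicates 1 to 5. The diets did not overlap, at -1.60 ± 0.19 on the deficient and -1.03 ± 0.22 on the normal diet (SD, n = 5 each), a difference of -0.57. Since the pair was picked for how it looked, no test is given; of the 465 ratios between 2 of the 31 genes 12, or 2.58%, had diets that did not overlap. Leaving out any 1 tumour gave differences of -0.64 to -0.49, and could not in itself make diets that were apart overlap.

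Other genes of the pathway were read from 5 lists. Among further sterol-responsive genes, 15 of 20 tested were lower and 5 higher, where 49.7% of all tested genes were lower. Their median was -0.17 on the log2 scale. Of the 20, 1 gene (Fads2) was lower at an unadjusted p under 0.05 by edgeR, where 3.19% of all tested genes were. Fads2, a fatty acid desaturase, averaged 96.3 ± 16.2 CPM under arginine deficiency and 127 ± 20.9 CPM under the normal diet (SD, n = 5 each; edgeR log2 fold change -0.40 with an SE of 0.15, adjusted p = 0.611).

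In the list of sterol-regulated breakdown and SREBP processing, 9 of 10 tested were higher, where 50.3% of all tested genes were. Their median was 0.12 on the log2 scale. Of the 10, 2 (Erlin1 and Syvn1) were higher at an unadjusted p under 0.05 by edgeR, where 3.54% of all tested genes were. Like that of the enzymes, this direction is a description, since the list was chosen with earlier results known. Erlin1, a cholesterol-binding protein of the endoplasmic reticulum known to restrain SREBP, had 239, 246, 189, 166 and 232 CPM in arginine-deficient replicates 1 to 5, against 116, 124, 118, 154 and 121 CPM in normal-diet replicates 1 to 5. Every deficient tumour was above every normal tumour, which held for 0.835% of all tested genes. The muscle-rich arginine-deficient replicates 3 and 4 were least so (edgeR log2 fold change 0.76 with an SE of 0.13, adjusted p = 0.0699). It missed the threshold by edgeR, and passed by DESeq2 (adjusted p = 0.000164) and by limma voom with sample weights (adjusted p = 0.00524), where 0.481% and 1.59% of all genes passed as higher. It also passed with the GC and length slopes as covariates (adjusted p = 0.0365, 0.271% of all genes higher) and without the 3 muscle-rich libraries (adjusted p = 0.005, 0.139% of all genes higher). It missed the threshold under the other 15 of 19 alternatives, with an adjusted p of 0.0544 to 0.305 when 1 library was left out and up to 0.518 with a replicate block. Syvn1, a ubiquitin ligase of the same membrane, lay 0.37 higher on the log2 scale (SE 0.13, edgeR adjusted p = 0.571). It passed only by limma voom with sample weights (adjusted p = 0.0267), where 1.59% of all genes passed as higher.

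Genes of sterol storage, trafficking and oxysterols had 10 of 17 tested higher, where 50.3% of all tested genes were. Their median was 0.06 on the log2 scale. Of the 17, 2 (Stard5 and Osbp) were higher at an unadjusted p under 0.05 by edgeR, where 3.54% of all tested genes were. Stard5, a sterol carrier, averaged 27.2 ± 9.39 CPM under arginine deficiency and 15.2 ± 4.87 CPM under the normal diet (SD, n = 5 each). Its edgeR log2 fold change was 0.84 with an SE of 0.26 (adjusted p = 0.465). It too passed only by limma voom with sample weights (adjusted p = 0.0136), where 1.59% of all genes passed as higher. Of its exonic bases 43.9% lie inside other gene bodies. Osbp, which exchanges sterol between the endoplasmic reticulum and the Golgi, had 111, 93.3, 95.1, 93.6 and 91.6 CPM on the deficient diet and 83.8, 77.8, 84.2, 89.3 and 76.8 CPM on the normal diet. Its diets did not overlap, with the deficient diet higher, which held for 0.835% of all tested genes (edgeR log2 fold change 0.23 with an SE of 0.10, adjusted p = 0.665). LXR targets and lipoprotein genes had 10 of 15 higher and a median of 0.03, and the isoprenoid branch 8 of 12 higher and a median of 0.07, both with no gene at an unadjusted p under 0.05.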

How the data were processed

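Total RNA of each tumour was extracted with TRIzol and read on Illumina platforms, per the labels' protocols, which do not say whether strand was kept. The deposited table holds raw counts per gene, whole numbers the authors had not normalized, 1 column per library. STAR, featureCounts and the mm10 build are named, per the submitters' processing notes, without versions or settings. How reads shared by overlapping genes were counted is not stated. The part of overlap in any gene's counts, Mvd at 0 among them, was not tested.

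Symbols came from GENCODE M21 (21379 identifiers matched with their version, 437 with another, 33 with none). Of the 21849 genes 4263 were at 0 throughout. No 2 libraries agreed within sampling noise (lowest chi-square per degree of freedom 16.7). The libraries were taken as separate animals from the design text. Library totals were 12013178 to 31530123 counts.

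Diets were compared with edgeR 4.0.16 under R 4.3.3, by the quasi-likelihood F test with TMM scaling, genes kept by filterByExpr's defaults (minimum count 10, minimum total 15), diet as its only term, and Benjamini-Hochberg adjustment over the 12929 tested genes, which held 99.9% of counts. A standard error is the size of the log2 fold change divided by the root of F. CPM of tested genes used the TMM factors, and marker sums used library totals. Correlations used log2 CPM (prior count 2) and 100000 resamples, or every permutation with 9 tumours or fewer. The listed genes, the lists and the tests were chosen with earlier results of these data known, the further pathway genes and marker lists likewise. Genes were described in full by a rule: those with an unadjusted p under 0.05 or without overlap, and 13 of fixed name, with up to 4 of smallest p from each further list. Of the 6 pairs 1 is not reported here. In simulations on the 12929 genes of the diet comparison with 200 changed, the edgeR test recovered 0.167% of changed genes at 1.5-fold, 70% at 2-fold and 98.2% at 4-fold.

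Alternatives were DESeq2 1.42.0, limma 3.58.1 voom with sample weights, other size factors, library totals alone, no filter or at least 1 CPM in 5 libraries, a replicate block, each library left out, the 3 muscle-rich libraries left out, GC and length slopes as covariates, and a prior count of 0.5 for correlations. Regressing the slopes out of the paired levels and the ratio of Idi1 to Hmgcs1 were added after seeing the data.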

Additional observations from a re-analysis of the deposited data

Results flagged for a closer look

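In 6 of 72 sets of 5 tumours examined, 1 tumour stood far from the other 4 of its diet by Dixon's criterion (0.71 for 5 values), where chance marks about 1 in 20. Fdft1 was 73.8 CPM in arginine-deficient replicate 5, against 49.7 to 52.7 CPM in the other 4. Sc5d was 74.6 CPM in arginine-deficient replicate 3, against 43.7 to 50.8 CPM, and Scap 55.2 CPM in the same tumour, against 81.6 to 90.9 CPM. That tumour also held most muscle and mitochondrial transcripts and the lowest GC slope of the 10, and their part in these values was not tested. Stard4 was 82.4 CPM in normal-diet replicate 2, against 51.4 to 59.6 CPM in the other normal tumours. Npc1 was 35.5 CPM in normal-diet replicate 1, against 42.0 to 43.0 CPM. Nr1h3 was 1.86 CPM in arginine-deficient replicate 2, against 3.78 to 4.18 CPM, on few counts.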

How the results depend on the processing

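The number of genes passing over the whole table was 7 by edgeR, 127 by DESeq2, 373 by limma voom with sample weights, 68 with GC and length slopes as covariates and 18 without the 3 muscle-rich libraries, and it ran from 0 to 16 with 1 library left out. Of the 31 tested genes 1, Nsdhl, passed by limma voom with sample weights and 0 under the other 18 alternatives. Those at an unadjusted p under 0.05, 7 by edgeR, numbered 5 to 9 with 1 library left out. They numbered 12 with the slopes as covariates (1 higher, 11 lower), where 8.08% and 7.9% of all genes were. By limma voom with sample weights they numbered 11 (1 higher, 10 lower), where 10.3% and 9.69% of all genes were. The enzyme median ran from -0.47 to -0.32 over the 19 alternatives, and 13 of 17 enzymes and 24 of 31 genes kept their sign under all of them.

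Replicate numbers did not pair the tumours, the correlations of same-numbered libraries being 0.127, -0.349, -0.0061, 0.127 and 0.183. With a replicate block 1 gene of the table passed, 0 of the 31 passed and 6 had an unadjusted p under 0.05, and the enzyme median was -0.38.

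The sign turned, the cause being not tested, for Scap (0.038 by limma voom with sample weights and 0.036 without the 3 muscle-rich libraries) and, on library totals alone, for Abcg1 (-0.0058) and Nr1h2 (-0.024). With 1 library left out, log2 fold changes ran from -0.34 to 0.049 for Hmgcs1, -0.30 to 0.046 for Fdps, -0.17 to 0.017 for Sqle, -0.17 to 0.11 for Sc5d, -0.093 to 0.090 for Scap, -0.050 to 0.10 for Abcg1 and -0.12 to 0.16 for Nr1h2. In 13 other genes it kept its sign and moved by over 1.5 times, as for Mvk (-0.60 to -0.26), Lss (-0.47 to -0.17), Cyp51 (-0.48 to -0.18) and Hsd17b7 (-0.32 to -0.12), so that 11 of the 31 moved by less.

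Among the pairs, with GC and length slopes regressed out r turned to 0.299 for Hmgcs1 with Insig1, 0.455 for Hmgcs1 with Srebf2 and 0.482 for Abca1 with Abcg1, and was -0.687 for Abca1 with Nr1h3. Without the 2 farthest tumours Hmgcs1 with Insig1 had 0.258. With 1 library left out r ran from -0.304 to 0.289 for Hmgcs1 with Insig1, -0.601 to 0.25 for Hmgcs1 with Srebf2, -0.441 to 0.0701 for Abca1 with Abcg1 and 0.827 to 0.940 for Hmgcs1 with Idi1. Differences of 1.5-fold were hardly recovered at this number of tumours in simulation, and most of these genes differed by less.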
